A study of Mus musculus with 15 samples.

Results

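Osteoclasts are the cells that resorb bone, and their formation from myeloid precursors is directed by a ligand, its receptor and a soluble decoy. The 10 genes described here are Tnfsf11 (RANKL, the ligand), Tnfrsf11a (RANK, its receptor), Tnfrsf11b (osteoprotegerin, the decoy), Nfatc1 (the transcription factor at the end of RANK signalling), Dcstamp and Ocstamp (membrane proteins needed for fusion of precursors), Oscar (a costimulatory receptor), Calcr and Itgb3 (the calcitonin receptor and the beta 3 integrin chain of the mature cell) and Acp5 (tartrate-resistant acid phosphatase, the classical osteoclast stain). They were chosen by symbol from 19938 genes, and each was measured by 1 probe set that names that gene alone.

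RNA had been taken from whole tarsal joints of male DBA/1JBom mice, 1 joint per array, in the course of collagen-induced arthritis, a model in which mice are immunised with chicken type II collagen in complete Freund's adjuvant on day 1 and boosted in incomplete adjuvant on day 21. The arthritic joints had been sampled at day 0 to 3 of disease, in week 1 to 2 or in week 3 to 4, each at a clinical score of 3, or in a declining phase, after a score of 3 that had lasted over 2 weeks by the labels. Each of these phases has 3 arrays, of which that of animal 57 at day 0 to 3 failed the authors' quality control, and 3 joints came from non-induced mice. Results are given over the other 14 arrays, with animal 57 given apart. The labels and array methods describe the controls as not immunised, whereas the animal methods describe controls given adjuvant alone, and which applies to these 3 mice was not settled. No genetic modification is named for any group. All phases are compared with the same 3 controls, so the comparisons with control are not independent of each other.

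RANKL is made in the joint by osteocytes, osteoblasts, synovial fibroblasts and activated T cells, and osteoprotegerin by stromal and osteoblastic cells. Binding of RANKL to RANK on the precursor, together with CSF1 and a costimulatory signal through receptors that carry or recruit ITAM motifs, leads to induction of Nfatc1, which in turn switches on genes for fusion and resorption. In arthritis, osteoclasts formed in this way erode bone at the edge of the inflamed synovium. In a whole joint, fewer cells of a type and less RNA per cell cannot be told apart.

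The values are log2 intensities after background correction, quantile normalisation and probe summary (RMA). The SD over genes of an array, its dynamic range, was 1.22 to 1.46 in the controls, 1.28 to 1.59 in the declining phase and 1.48 to 1.65 in the other 8 joints. The 2 narrowest of the 14 arrays were those of control 2 and of declining animal 10. Over the 14 arrays the correlation with this SD was 0.82 for Acp5, 0.77 for Itgb3, 0.76 for Nfatc1, 0.70 for Dcstamp, −0.81 for Tnfrsf11b and −0.83 for Calcr. For that reason values on arrays rescaled to 1 median and SD are given beside the main ones where a gene passed the test. As a scale for low values, 1245 probe sets of olfactory, vomeronasal and taste receptors, which joints are not known to use, had a mean log2 value with a median of 4.52 and a 95th percentile of 6.06. Dcstamp (mean 5.91 over 14 arrays), Calcr (5.82) and Oscar (5.79) lay below that 95th percentile, and the other 7 genes above it.

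The upstream sequence of Acp5 is shown because it was the gene with the largest differences, and that of Tnfsf11 and Oscar for comparison. RefSeq (GRCm38.p6) windows of 250 bases upstream of an annotated start were at hand for 5 of the 10 genes, 8 windows in all. Capitals mark GGAAA, the core bound by NFAT proteins, and TCANGTG, both read on either strand. TCANGTG takes in the TCATGTG and TCACGTG letters of the kind bound by MITF, but also TCAGGTG and TCAAGTG. None of the 8 windows holds the AP-1 letters TGANTCA. A match is a run of letters and was not measured as a binding site.
Acp5, innermost start, chr9:22130599-22130848, minus strand: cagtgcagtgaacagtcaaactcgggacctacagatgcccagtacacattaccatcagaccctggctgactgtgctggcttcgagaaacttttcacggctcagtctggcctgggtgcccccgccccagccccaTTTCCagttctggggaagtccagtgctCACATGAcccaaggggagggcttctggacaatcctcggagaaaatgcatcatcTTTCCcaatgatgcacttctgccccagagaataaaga
Acp5, middle start, chr9:22131866-22132115, minus strand: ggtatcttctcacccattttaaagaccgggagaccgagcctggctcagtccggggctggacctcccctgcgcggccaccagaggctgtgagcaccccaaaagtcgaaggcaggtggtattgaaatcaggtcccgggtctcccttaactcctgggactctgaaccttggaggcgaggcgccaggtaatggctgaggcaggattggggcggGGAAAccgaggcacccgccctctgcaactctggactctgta
Acp5, outermost start, chr9:22135747-22135996, minus strand: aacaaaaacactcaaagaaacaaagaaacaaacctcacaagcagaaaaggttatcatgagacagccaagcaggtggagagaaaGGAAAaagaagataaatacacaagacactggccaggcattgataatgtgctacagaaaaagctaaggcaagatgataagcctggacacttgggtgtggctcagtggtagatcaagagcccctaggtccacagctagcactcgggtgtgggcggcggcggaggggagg
Tnfsf11, chr14:78308044-78308293, minus strand: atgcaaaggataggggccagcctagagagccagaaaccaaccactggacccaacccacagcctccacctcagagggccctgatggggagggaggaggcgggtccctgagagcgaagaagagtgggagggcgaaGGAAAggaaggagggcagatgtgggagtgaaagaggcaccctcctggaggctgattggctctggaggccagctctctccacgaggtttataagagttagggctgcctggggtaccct
Oscar, chr7:3616158-3616407, minus strand: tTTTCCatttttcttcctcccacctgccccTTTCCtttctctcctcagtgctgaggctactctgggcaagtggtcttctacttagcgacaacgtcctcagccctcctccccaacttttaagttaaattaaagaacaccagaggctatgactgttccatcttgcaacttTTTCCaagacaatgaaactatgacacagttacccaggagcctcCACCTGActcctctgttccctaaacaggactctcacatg

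The GGAAA letters occur 2 times in the innermost Acp5 window and once in each of the other windows of that gene, once in the Tnfsf11 window and 3 times in the Oscar window. Of all 32851 RefSeq windows of this length, 55.6% hold GGAAA at least once and 6.39% at least 3 times. TCANGTG occurs once in the innermost Acp5 window, as TCATGTG on the other strand, and once in the Oscar window, as TCAGGTG. The whole pattern, of which the MITF letters are only a part, occurs in 12.2% of all windows, and TGANTCA in 6.75%. Neither the Tnfrsf11a window nor the inner Calcr window holds any of these letters. Since a gene had 1 probe set, the arrays do not separate transcripts from the 3 starts of Acp5.

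Acp5 was the only member called against control in a single phase, and 1 of 2, with Nfatc1, called when the phases were averaged. Its log2 value was 8.12, 6.95 and 8.53 in the 3 controls, 10.20 and 9.78 at day 0 to 3, then 9.87, 10.00 and 9.93 in week 1 to 2, 10.02, 9.63 and 9.94 in week 3 to 4, and 9.68, 9.47 and 9.08 in decline. All 11 arthritic joints were above every control. Such a separation was found for 1 of the 10 members and for 4.63% of all genes. The gene lies on chr9:22126727-22135746 (GRCm38.p6).

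Relative to control, Acp5 was higher by 2.12 ± 0.35 (log2 change ± SE, 2 against 3 joints) at day 0 to 3, a fold of 4.36 (limma, adjusted p = 0.0038 over all genes). In week 1 to 2 it was higher by 2.07 ± 0.31 (3 against 3 joints, limma, adjusted p = 0.0031), a fold of 4.19. In week 3 to 4 it was higher by 2.00 ± 0.31 (limma, adjusted p = 0.016), a fold of 3.99. The level of Acp5 thus rose about equally in these phases, and the differences between consecutive phases were −0.06 and −0.07 (limma, adjusted p = 1 for both).

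In the declining phase the Acp5 difference from control was 1.54, with a 95% interval of 0.87 to 2.21, which did not pass the threshold (limma, adjusted p = 0.14). All 3 declining joints were nonetheless above every control, in a phase where 10% of all genes did not overlap with control. In that comparison 0 of 19938 genes were called by limma (2400 at an unadjusted p under 0.05). Without the joint of animal 10, one of the 2 narrowest arrays, Acp5 passed in decline (log2 change 1.71, limma, adjusted p = 0.042). From week 3 to 4 to decline the change was −0.45 (95% interval −1.12 to 0.22, limma, adjusted p = 0.79). Averaged over the 4 phases, Acp5 was higher by 1.93 ± 0.25 (limma, adjusted p = 0.0013).

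The control of animal 2 had the lowest Acp5 value and the narrowest array. Without it the Acp5 changes were 1.67, 1.61 and 1.54 in the first 3 phases, each still called (limma, adjusted p = 0.0027, 0.0044 and 0.023). On arrays brought to 1 median and SD they were 1.93, 1.89 and 1.78 (limma, adjusted p = 0.0049, 0.0036 and 0.015). The call at day 0 to 3 was lost without animal 16 (1.91, limma, adjusted p = 0.075) and with animal 57, whose Acp5 value was 8.67 (1.68, limma, adjusted p = 0.071). The call in week 3 to 4 was lost without animal 54 (1.92, limma, adjusted p = 0.055) or animal 60 (1.96, limma, adjusted p = 0.10), and when animal 57 entered the fit (2.00, limma, adjusted p = 0.14). Acp5 is also among the genes the study singled out on these arrays, so its rise here is not independent evidence.

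**Figure D1:**
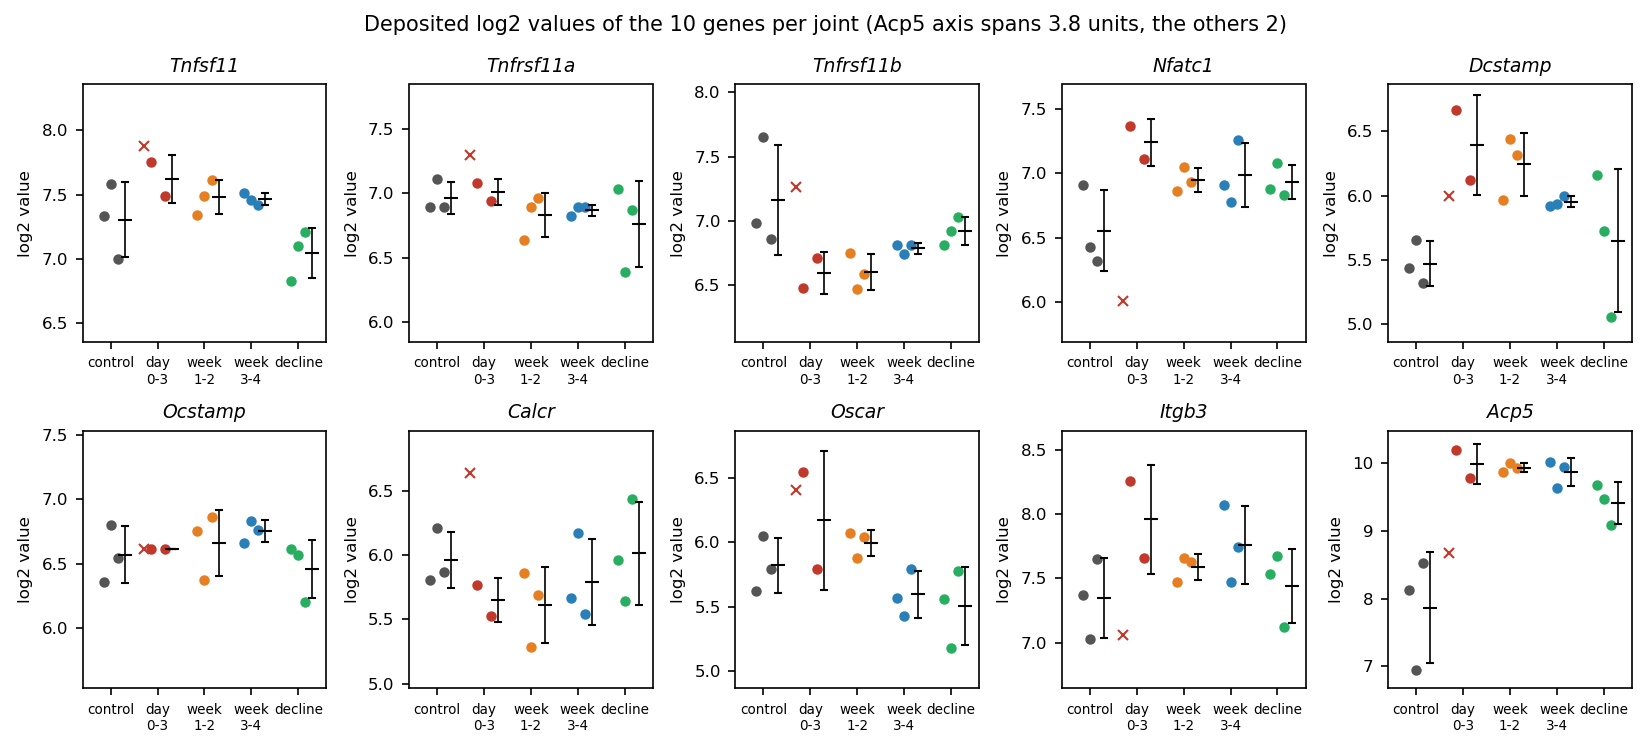
Deposited log2 value (vertical axis) of each gene in each joint, by group (horizontal axis). Filled points are joints that passed quality control, a cross marks animal 57, and bars with whiskers show the mean ± SD. The 11 arthritic joints have Acp5 values of 9.08 to 10.20 against 6.95 to 8.53 in the controls, whereas the groups of the other genes overlap in at least 1 phase.

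RANKL itself did not pass the test in any comparison. Tnfsf11 (chr14:78277446-78308043) had log2 values of 7.33, 7.58 and 6.996 in the controls, 7.75 and 7.49 at day 0 to 3, then 7.34, 7.49 and 7.61 in week 1 to 2, 7.51, 7.46 and 7.42 in week 3 to 4, and 6.83, 7.10 and 7.21 in decline. Every phase overlapped the controls. The log2 changes against control were 0.32 (95% interval −0.09 to 0.73), 0.18 (−0.19 to 0.54), 0.16 (−0.20 to 0.53) and −0.26 (−0.62 to 0.11), with adjusted p values of 0.30, 0.49, 0.54 and 0.57 in limma. These intervals leave room for a rise of up to 1.65-fold at day 0 to 3.

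The order of the Tnfsf11 means was day 0 to 3 (7.62), week 1 to 2 (7.48), week 3 to 4 (7.46), control (7.30) and decline (7.05). All 3 declining joints were below the 3 joints of week 3 to 4, a separation whose share over all genes was not counted. This step of −0.42 (95% interval −0.78 to −0.05) had an unadjusted p of 0.028 in limma and an adjusted p of 0.79. A letter code of unstated meaning divides the arrays of arthritic joints by name. The kept arrays of the 2 earliest phases and that of animal 54 carry the first code, and the controls carry none. For every gene, Acp5 included, and for the ratio given below, differences from control therefore run along with this code. So do differences between the 2 earliest phases and decline, and the part of the code in any of these was not tested. Animals 29 and 60 of week 3 to 4 and all declining joints share the second code. The step among these arrays was −0.39 (means of 7.44 and 7.05, not tested). In the order of the means control stands between week 3 to 4 and decline, and no pair of neighbours had a 95% interval that excluded 0. Animal 57 had a Tnfsf11 value of 7.88, above every one of the 14 arrays.

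The receptor was at much the same level throughout. Tnfrsf11a (chr1:105780673-105849444) had values of 6.89, 7.11 and 6.89 in the controls, 7.08 and 6.94 at day 0 to 3, then 6.64, 6.89 and 6.96 in week 1 to 2, 6.82, 6.89 and 6.89 in week 3 to 4, and 7.03, 6.39 and 6.87 in decline. The lowest joint was animal 21 of the declining phase, and all phases overlapped the controls. The changes were 0.05, −0.13, −0.09 and −0.20 in phase order, the lowest adjusted p was 0.61 in limma, and the 95% intervals ran from −0.56 to 0.46 across the phases.

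The decoy receptor had lower values in the first 3 phases without passing the test over the 14 arrays. Tnfrsf11b (chr15:54250619-54278484) measured 6.98, 7.65 and 6.86 in the controls, 6.48 and 6.71 at day 0 to 3, then 6.75, 6.47 and 6.59 in week 1 to 2, 6.81, 6.74 and 6.81 in week 3 to 4, and 6.81, 6.92 and 7.03 in decline. All 8 joints of the first 3 phases were below every control, and the declining joints overlapped them. The share of all genes with this separation over 8 joints was not counted. By single phase, 46.2%, 36.9% and 25.9% of all genes did not overlap with control. The changes were −0.57 (95% interval −1.02 to −0.12), −0.56 (−0.96 to −0.16), −0.38 (−0.78 to 0.03) and −0.24 (−0.65 to 0.16), with adjusted p values of 0.11, 0.069, 0.23 and 0.63 in limma. Averaged over the phases the change was −0.44 (limma, adjusted p = 0.069). Tnfrsf11b was called in 1 of 29 alternatives in week 1 to 2 (without control 3, limma, adjusted p = 0.048) and in 1 of 28 for the phase average (without decline 10, limma, adjusted p = 0.045). Over the alternatives the changes shrank to as little as −0.305, −0.319, −0.134 and −0.000267 in phase order. The highest control, animal 2, was the narrowest array, and animal 57, the narrowest of all 15, had 7.26.

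Since ligand and decoy act against each other, their log2 difference was followed within each array, with the mean of the controls set to 0, as the offset between 2 probe sets has no meaning. The controls stood at 0.21, −0.21 and 0.00. The joints of day 0 to 3 stood at 1.13 and 0.64, those of week 1 to 2 at 0.45, 0.87 and 0.88, and those of week 3 to 4 at 0.56, 0.58 and 0.47. The declining joints stood at −0.12, 0.04 and 0.04. Thus all 8 joints of the first 3 phases were above every control, and the declining joints lay within the range of the controls. The share of other gene pairs with such a separation was not counted.

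The mean change of the Tnfsf11 to Tnfrsf11b ratio was 0.89 ± 0.35 (SD, n = 2) at day 0 to 3, 0.74 ± 0.25 (n = 3) in week 1 to 2, 0.54 ± 0.06 (n = 3) in week 3 to 4 and −0.01 ± 0.09 (n = 3) in decline, against an SD of 0.21 among controls. In folds these are 1.85, 1.67, 1.45 and 0.99. The two-sided exact permutation test gave p = 0.2, 0.1 and 0.1 for the first 3 phases, which is the smallest each design can give, and p = 1 for decline. Over all 11 arthritic joints the change was 0.51 (exact permutation test, p = 0.060, where the smallest possible is 0.0055). On arrays of 1 median and SD it was 0.48 (exact permutation test, p = 0.060). Without any 1 of the 3 declining joints p was 0.028 to 0.042 (exact permutation test). Since these stood lowest of the arthritic joints, leaving 1 out had to raise the mean change, and these p values are no added support. Without control 2 the change was 0.40 (exact permutation test, p = 0.21). Animal 57 stood at 0.48.

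**Figure D2:**
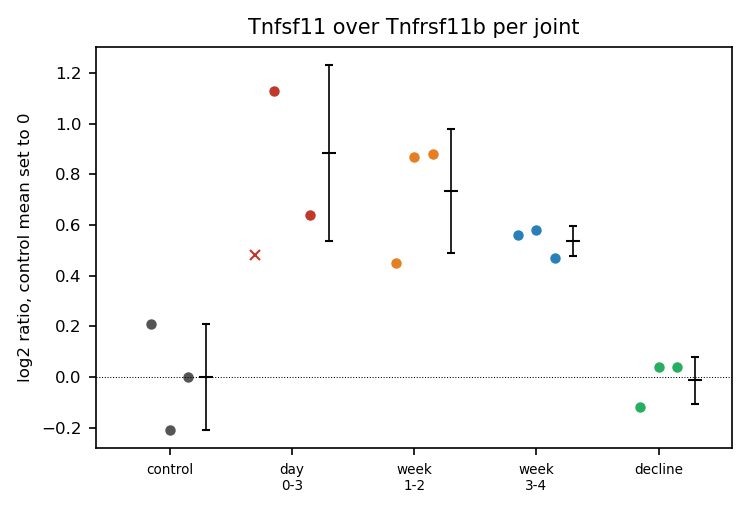
Log2 ratio of Tnfsf11 to Tnfrsf11b in each joint (vertical axis, control mean set to 0) by group (horizontal axis). Points are joints, a cross marks animal 57, and bars with whiskers show the mean ± SD. The 8 joints of the first 3 phases stand at 0.45 to 1.13, above the highest control at 0.21, and the declining joints at −0.12 to 0.04.

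Nfatc1, which RANK signalling induces and which then amplifies its own expression, was higher only when the 4 phases were averaged (log2 change 0.47 ± 0.14, limma, adjusted p = 0.049). Its values were 6.91, 6.43 and 6.32 in the controls, 7.37 and 7.11 at day 0 to 3, then 6.86, 7.05 and 6.93 in week 1 to 2, 6.91, 6.78 and 7.26 in week 3 to 4, and 6.88, 7.08 and 6.83 in decline. Both joints of day 0 to 3 were above every control, in a phase where 46.2% of all genes did not overlap with control. The other phases overlapped control 1. By phase the changes were 0.69, 0.39, 0.43 and 0.38, with adjusted p values of 0.055, 0.17, 0.18 and 0.43 in limma. On arrays of 1 median and SD the averaged change was 0.49 (limma, adjusted p = 0.041), and with animal 57 it was 0.37 (limma, adjusted p = 0.44). The averaged call held in 11 of 28 alternatives and not without control 2 (0.41, limma, adjusted p = 0.20) or control 3 (0.35, limma, adjusted p = 0.18), while the day 0 to 3 difference was called in 9 of 29. On the array of animal 57 Nfatc1 was at 6.01, below every control.

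The fusion genes behaved unlike each other. Dcstamp (chr15:39745930-39760938) had values of 5.44, 5.66 and 5.32 in the controls, 6.67 and 6.12 at day 0 to 3, then 5.97, 6.44 and 6.32 in week 1 to 2, 5.92, 5.94 and 5.999 in week 3 to 4, and 6.16, 5.73 and 5.06 in decline. All 8 joints of the first 3 phases were above every control, and the declining joints spread over and beyond the control range. The share of all genes with this separation over 8 joints was not counted. In single phases it was 46.2%, 36.9% and 25.9%. The changes were 0.92 (95% interval 0.34 to 1.51), 0.77 (0.25 to 1.29), 0.48 (−0.04 to 1.00) and 0.18 (−0.35 to 0.70), with adjusted p values of 0.054, 0.059, 0.24 and 0.79 in limma. Dcstamp was called at day 0 to 3 in 6 of 29 alternatives, among them the one without decline 10 (limma, adjusted p = 0.013). Its probe set was within the range of the chemosensory receptors in every control.

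Ocstamp (chr2:165395450-165400394) stayed near 6.6 in all groups. It measured 6.36, 6.80 and 6.54 in the controls, 6.61 in both joints of day 0 to 3, 6.75, 6.37 and 6.86 in week 1 to 2, 6.66, 6.83 and 6.76 in week 3 to 4, and 6.61, 6.57 and 6.20 in decline. The changes were 0.04, 0.09, 0.18 and −0.11 (lowest adjusted p 0.50 in limma), with 95% intervals between −0.48 and 0.55. The deposited value is identical on 4 arrays, those of day 0 to 3 with animal 57 and of declining animal 15, as is the case for 6.32% of genes, so that its SD of 0 at day 0 to 3 is not an estimate of the spread between mice.

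The costimulatory receptor Oscar (chr7:3609813-3616157), which binds collagen exposed on bone and pairs with the adaptor Fcer1g, measured 5.62, 6.05 and 5.79 in the controls, 6.55 and 5.79 at day 0 to 3, then 6.07, 5.88 and 6.04 in week 1 to 2, 5.57, 5.43 and 5.79 in week 3 to 4, and 5.56, 5.18 and 5.78 in decline. Every phase overlapped the controls. The changes were 0.35, 0.18, −0.22 and −0.31 in phase order (lowest adjusted p 0.36 in limma). All 3 joints of week 1 to 2 were above all 3 of week 3 to 4, a step of −0.40 with a 95% interval of −0.86 to 0.05 (limma, adjusted p = 1). The share of all genes with such a separation was not counted.

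Of the genes of the mature cell other than Acp5, neither passed. Itgb3 (chr11:104608000-104670476), whose product pairs with the alpha v chain to anchor the osteoclast to bone and is also carried by platelets, measured 7.37, 7.03 and 7.65 in the controls, 8.26 and 7.66 at day 0 to 3, then 7.47, 7.66 and 7.63 in week 1 to 2, 8.07, 7.47 and 7.74 in week 3 to 4, and 7.53, 7.67 and 7.12 in decline. The joints of day 0 to 3 lay above the controls by a narrow margin, in a phase where 46.2% of all genes did not overlap with control. The other phases overlapped the controls. Its changes were 0.61 (95% interval 0.08 to 1.14), 0.24, 0.41 and 0.09, with a lowest adjusted p of 0.14 in limma. Over these arrays the mean of 4 platelet markers was 8.01 to 8.47 in the controls and 7.84 to 8.10 at day 0 to 3, with 0 of 4 called in any phase.

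Calcr (chr6:3685678-3764713) measured 5.81, 6.21 and 5.87 in the controls, 5.77 and 5.53 at day 0 to 3, then 5.86, 5.29 and 5.69 in week 1 to 2, 5.67, 6.17 and 5.54 in week 3 to 4, and 5.96, 5.64 and 6.44 in decline. It lay within the range of the chemosensory receptors on 11 of 14 arrays, so that a change at these low values was not detectable with certainty. Both joints of day 0 to 3 were below every control, in a phase where 46.2% of all genes did not overlap with control. The other phases overlapped the controls. The changes were −0.31, −0.35, −0.17 and 0.05 (lowest adjusted p 0.32 in limma).

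Counted together, 1 of the 10 members, Acp5, was called in each of the first 3 phases by limma, when 7.82%, 10.1% and 1.55% of all genes were called. In decline 0 of 10 members and 0% of genes were called, and over the averaged phases 2 members (Acp5 and Nfatc1) and 12.6% of genes. Among the members, 5, 4, 2 and 1 had an unadjusted p under 0.05 in phase order. In the first 2 phases the share of members called was therefore close to that of all genes. In the test for any difference among the 5 groups, Acp5 alone was called (limma, adjusted p = 0.0078), beside 5.2% of genes.

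Between consecutive phases 0 of 10 members were called, when the shares of all genes were 0.00502% from day 0 to 3 to week 1 to 2, 0.00502% from week 1 to 2 to week 3 to 4, and 0% from week 3 to 4 to decline. At an unadjusted p under 0.05 in limma there were 0, 0 and 1 members, the latter Tnfsf11. In phase order, the groups did not overlap with control for 6, 3, 3 and 1 members, beside 46.2%, 36.9%, 25.9% and 10% of all genes. The median change of the 10 members was 0.33, 0.18, 0.17 and −0.03, beside −0.12, −0.13, −0.09 and −0.05 over all genes.

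**Figure D3:**
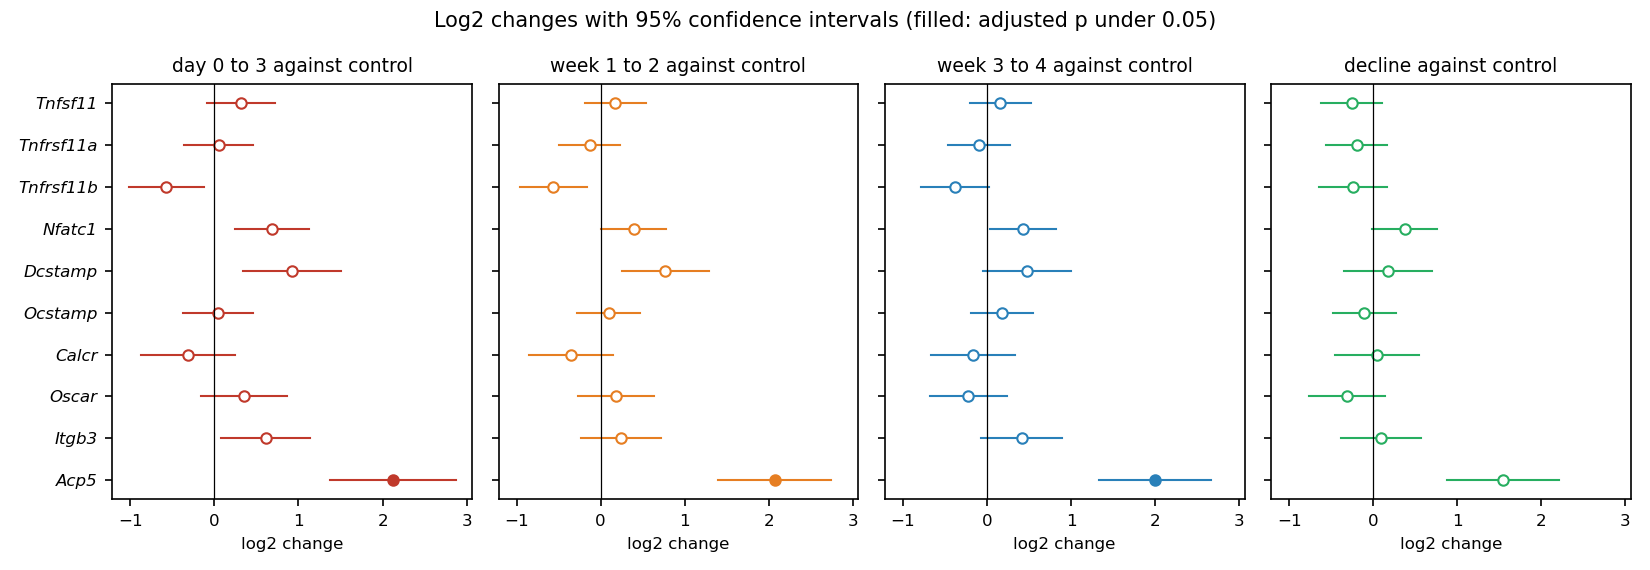
Log2 change against control (horizontal axis) with its 95% confidence interval for the 10 genes (vertical axis) in each phase. Filled points passed an adjusted p of 0.05 in limma. Acp5 stands at 2.12, 2.07, 2.00 and 1.54, and the other 9 genes lie between −0.57 and 0.92 with no filled point.

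Over the 14 arrays the members paired unevenly, given here as a description since the arrays share their groups and dynamic range. Acp5 correlated with Nfatc1 (Pearson r = 0.71), Itgb3 (0.70) and Dcstamp (0.64), and inversely with Tnfrsf11b (−0.88), but little with Tnfsf11 (0.13), Tnfrsf11a (−0.22) and Oscar (0.05). Tnfsf11 was most like Oscar (0.58) among the members. The 5 genes most like Acp5 over all genes were Arf1 (0.98), Eapp, Gpbp1, Hnrnph1 and Slc31a1 (0.97), of which Arf1 and Hnrnph1 are used by most cells. Those most like Tnfsf11 were Ttll4 (0.92), Atp6v1g2 (0.88), Necap2, Sla and Gjd3, and those most like Tnfrsf11b were Dspp (0.96), Bsnd, Bricd5, Syna and BC048671.

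The other genes of the pathway were read in 8 lists, of which resorption enzymes and acid secretion are given first. Of 10 genes measured, 5, 4, 4 and 0 were higher in the order of the phases and 0 were lower, beside 890, 1079, 191 and 0 higher and 669, 926, 118 and 0 lower of all 19938 genes. Ctsk (cathepsin K, which degrades bone collagen) was higher by 3.39, 3.45 and 2.87 on the log2 scale in the first 3 phases (limma, adjusted p = 0.0025, 0.0021 and 0.017), from a control mean of 7.88. Atp6v0d2, a subunit of the proton pump that is also needed for fusion and is counted in both lists, was higher by 3.05, 2.73 and 2.48 (limma, adjusted p = 0.0019, 0.0024 and 0.016). Mmp9 was higher by 2.07, 1.88 and 1.59 and Mmp14 by 1.30, 1.39 and 0.98 (highest adjusted p 0.044 in limma), both being matrix proteases that other cells of the joint also make. Tcirg1, the pump subunit of the ruffled border, was called at day 0 to 3 alone among the phases (0.90, limma, adjusted p = 0.016). The rest of the list was not called in any phase. In the first 3 phases the changes of Clcn7 were 0.19, 0.13 and −0.08, of Car2 0.14, 0.27 and 0.27, and of Plekhm1 0.25, 0.08 and 0.25. Those of Ostm1 were 0.74, 0.75 and 0.79, and of Snx10 0.90, 0.55 and 0.30. In decline Ctsk stood 2.20 and Atp6v0d2 1.82 above control (limma, adjusted p = 0.14 for each).

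Of 9 fusion genes other than the members, 2, 4, 1 and 0 were higher in phase order and 0 lower. Beside Atp6v0d2 these were Adam12 (1.13 and 0.74 in the first 2 phases) and, in week 1 to 2, Cd47 (1.81) and Sh3pxd2a (1.11), with adjusted p values of 0.016, 0.048, 0.043 and 0.038 in limma. Adam12, Cd47 and Sh3pxd2a are expressed by many cell types. The median of the list was 0.77, 0.49, 0.52 and 0.20.

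Of 13 genes of ITAM costimulation and calcium signalling, 4 were higher at day 0 to 3, 2 in week 1 to 2 and 0 later. Tyrobp (DAP12, the adaptor of Trem2) was higher by 1.98 and 1.69 (limma, adjusted p = 0.013 and 0.014) and Fcer1g, the adaptor of Oscar, by 1.93 and 1.27 (limma, adjusted p = 0.010 and 0.035). At day 0 to 3 the kinase Syk was higher by 0.89 and the scaffold Lcp2 by 1.06 (limma, adjusted p = 0.016 and 0.036). All 4 are also used by macrophages, mast cells and neutrophils. Of 20 proteins of RANK signalling, 0 were higher in any single phase and Rela, the p65 subunit of NF-kB, was lower by 0.51 in week 1 to 2 (limma, adjusted p = 0.041). Tab2, a partner of the kinase TAK1, was higher in the phase average (0.47, limma, adjusted p = 0.049).

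Of 9 genes of the CSF1 axis and precursor receptors, 3 were higher at day 0 to 3, 3 in week 1 to 2 and 0 later. These were Ccr2, the monocyte recruitment receptor (1.64 and 1.06), Ccl3 (1.63 and 1.12) and Ccl9 (1.03 and 0.88), the last a chemokine that osteoclasts release, with adjusted p values of 0.0021 to 0.047 in limma. Of 12 inhibitors of osteoclast differentiation, 1 and 2 were higher in the first 2 phases, namely the inhibitory receptor Lilrb4a (1.70 and 1.47, limma, adjusted p = 0.044 and 0.045) and Lgr4, a second receptor of RANKL (0.84 in week 1 to 2, limma, adjusted p = 0.033). Id2 (0.98) and Nfkbia (0.53) were called in the phase average (limma, adjusted p = 0.044 and 0.047).

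Of 13 cytokines and mediators known to raise RANKL in stromal cells, 5 were called higher at day 0 to 3, 3 in week 1 to 2 and 0 in the later phases. In the first 2 phases 9 and 8 of the 13 had positive changes. Tnf (−0.11 and −0.20), Il17a (−0.21 and −0.49) and Osm (−0.46 and −0.35) had negative changes there that were not called. Il1b was higher by 2.30 and 1.94 (limma, adjusted p = 0.012 and 0.014) and stood at 0.12 in week 3 to 4. Il6 was higher by 2.53 in week 1 to 2 (limma, adjusted p = 0.034) and stood at −0.21 in week 3 to 4, while its 2.26 at day 0 to 3 did not pass (limma, adjusted p = 0.083). The Il6 control mean of 5.05 was below 6.06, the 95th percentile of the chemosensory receptors. Its SD was 1.19 in the controls and 1.53 in week 1 to 2. At day 0 to 3 Ptgs2 (1.29), Il6st (1.19), Lif (1.07) and Ptger4 (0.87) were called as well, Ptger4 also in week 1 to 2 (0.69). The median of this list was 0.84, 0.19, 0.01 and −0.09, while the Tnfsf11 change was 0.32, 0.18, 0.16 and −0.26. A link between them was not tested.

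Of 13 binding partners of the member proteins, 2, 5, 1 and 0 were higher and 0 lower. Ibsp, the bone sialoprotein, was higher by 1.06, 1.30 and 1.49 in the first 3 phases (limma, adjusted p = 0.016, 0.0035 and 0.012). Itgav, the alpha v chain that pairs with the Itgb3 product, was higher by 1.23 and 0.98 in the first 2 phases (limma, adjusted p = 0.026 and 0.036). In week 1 to 2 Col1a1 (1.10) and Col3a1 (1.07), collagen chains of the kind Oscar binds, were higher, as was Lgr4 given above.

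**Figure D4:**
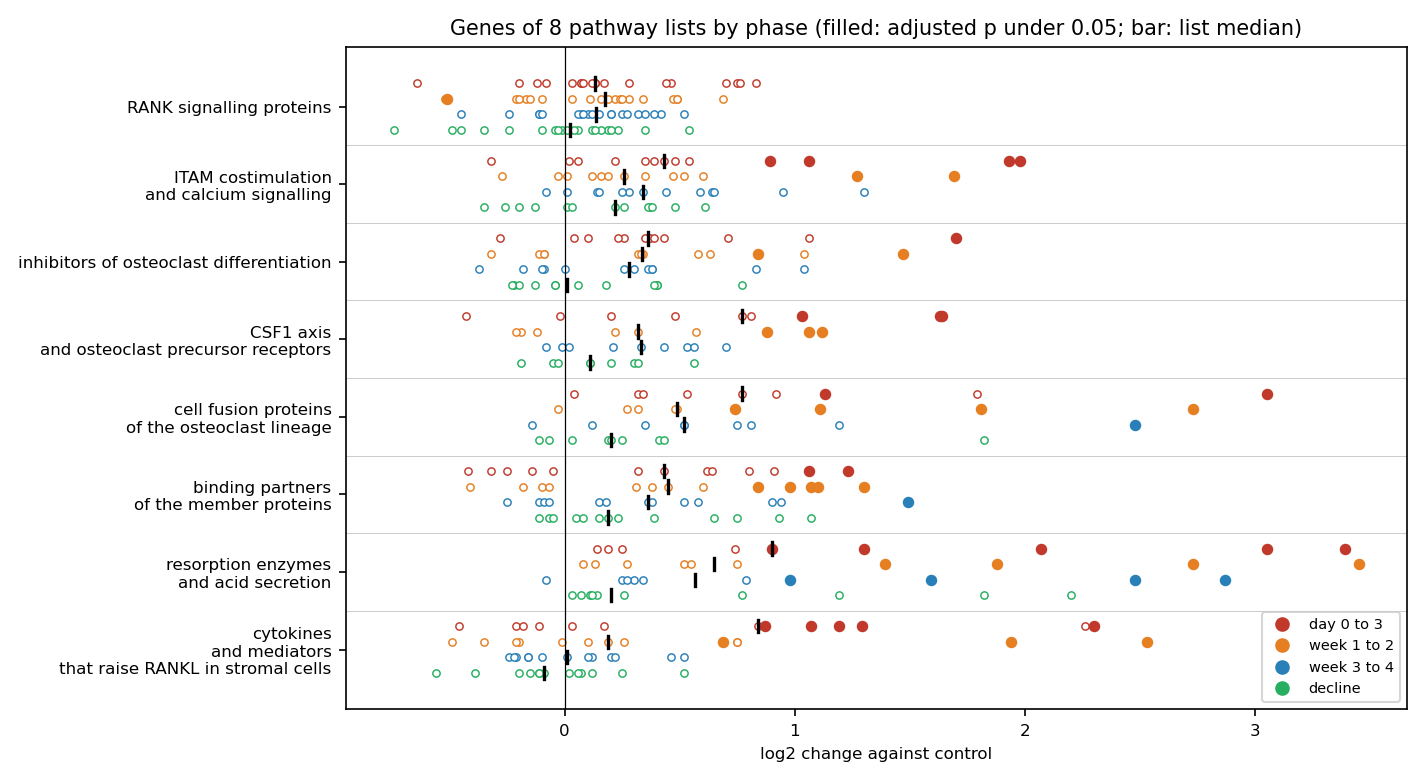
Log2 change against control (horizontal axis) of each gene of the 8 pathway lists (vertical axis) in each phase. Filled points passed an adjusted p of 0.05 in limma and black bars are list medians. The resorption list has medians of 0.90, 0.65, 0.57 and 0.20 in phase order, and no gene is filled in decline.

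Other cells differed between the groups as well. The mean log2 level of 7 macrophage and monocyte markers was 7.67 to 8.58 in the controls, 9.07 to 9.39 at day 0 to 3, 8.57 to 9.11 in week 1 to 2, 8.46 to 9.08 in week 3 to 4 and 7.86 to 8.82 in decline, with 3 of 7 called at day 0 to 3 (Adgre1, Cd68 and Itgam) and 0 in other phases. The mean of 5 osteoblast markers was 8.33 to 8.83 in the controls and 8.70 to 8.87 at day 0 to 3. It was 9.05 to 9.34 in week 1 to 2, 9.07 to 9.28 in week 3 to 4 and 8.91 to 9.18 in decline. At day 0 to 3 only 3 of the 5 had positive changes, of which Ibsp was called (1.06). Alpl (−0.77) and Sp7 (−0.12) had negative changes that were not called. The mean of 7 synovial fibroblast markers was 8.97 to 9.92 in the controls, 9.63 to 10.16 in the first 3 phases and 9.09 to 9.74 in decline. Fap was called in each of the first 3 phases (1.18, 1.81 and 1.56) and Cdh11 in the earliest 2 (1.39 and 1.69). The remaining fibroblast markers were not called in any phase, although 6 of the 7 changes were positive in each of the first 3 phases. Thy1 had negative changes in the earliest 2 (−0.20 and −0.28), and Prg4 had changes of 0.26, 0.02 and −0.04 over the first 3.

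Skeletal muscle markers went the other way, with a list mean of 11.12 to 11.93 in the controls and 9.11 to 9.27 at day 0 to 3, where 5 of 6 were lower. Epidermal markers had a list mean of 5.79 to 6.69 over the first 2 phases, 7.32 to 11.20 in week 3 to 4, 10.58 to 11.61 in decline and 6.32 to 10.69 in the controls, with 0 of 5 called. Of 4 adipocyte markers 3 and 2 were lower in the first 2 phases, and of 4 endothelial markers 3 were higher at day 0 to 3. Of 5 T cell markers, Cd3g was called higher at day 0 to 3 (1.44), while 3 of the 5 had negative changes and the list median was −0.14. Of 5 osteocyte markers, Sost was called lower at day 0 to 3 (fell by 0.84, list median −0.47) and Phex higher in week 1 to 2 (1.42), where the list median was −0.42 with 2 of 5 changes positive. None of the B cell, dendritic cell, neutrophil and chondrocyte markers was called in any phase by limma. The part of these tissue differences in the changes of Acp5 and the other members was not tested.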

How the data were processed

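Tarsal joint RNA of 15 mice had been extracted, amplified and hybridised to 1-colour Affymetrix mouse gene arrays, and the authors deposited RMA values on the log2 scale (affy, R 2.15), from 1.56 to 14.26. The sources used here do not say whether 14 or 15 arrays were normalised together. Of 35556 probe sets, 21789 name 1 gene; for 999 genes with several, that with the highest mean over 14 arrays was used, which left 19938 genes. The 5 groups were fitted together in limma 3.58.1 (R 4.3.3; lmFit, eBayes), with Benjamini-Hochberg adjustment over all genes and calls at an adjusted p under 0.05. The Tnfsf11 to Tnfrsf11b ratio was tested by exact permutation in scipy 1.17.1. Motifs were searched in RefSeq windows of 250 bases.

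The members, gene lists and tests were chosen with earlier results of these data known. All 10 members are named. Of a list, up to 4 called genes with the largest change per comparison are named, and in places further genes of the list. Of likeness, the 5 highest correlations are given. The calculation was tested on simulated data. Alternatives were all 15 arrays, each array left out, other moderation, weights, scalings, filters and probe set rules, and, added after seeing the data, leaving out control 2 and decline 10 together, quantile normalisation over 15 arrays and, for the ratio, 1 SD per array. Arrays have no read depth, and 2 or 3 arrays per group limit the precision. The samples are separate mice.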

Additional observations from a re-analysis of the deposited data

Results flagged for a closer look

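In Tnfsf11, every joint of the first 3 phases was above the control mean of 7.30 and every declining joint below it, so that the means of these phases exceeded that of decline by 0.57, 0.43 and 0.42 on the log2 scale. The last step was tested in limma (adjusted p = 0.79), and the other 2 differences were not tested. In Oscar, every joint of week 1 to 2 was above the control mean of 5.82. Every joint of week 3 to 4 and decline was below it, with differences of 0.40 (limma, adjusted p = 1) and 0.49 (not tested). For both genes every phase overlapped the range of the controls, and Oscar was below 6.06, the 95th percentile of the chemosensory receptors, on 12 of 14 arrays. The share of all genes with such a separation between phases was not counted. Arrays of the first 2 of these phases also differ from those of decline in their letter code, whose part was not tested.

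The array of animal 57, left out after quality control, had values above every control for Tnfsf11 (7.88), Tnfrsf11a (7.30), Dcstamp (6.0), Calcr (6.64), Oscar (6.41) and Acp5 (8.67). Nfatc1 was below every control there (6.01). That array had an SD over genes of 1.08, against 1.22 to 1.65 on the arrays kept. Its median was 6.39, against 6.0 to 6.3, and its mean correlation with its own group was 0.78. Dcstamp, Calcr and Oscar had means below 6.06, the 95th percentile of the chemosensory receptors, on the arrays kept. Whether these values reflect the joint or the narrow range of the array was not tested. No group holds 4 or more joints, so single joints were not screened for outlying values.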

How the results depend on the processing

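Of 2340 log2 changes of the members recomputed under the alternatives, 2285 stayed on the same side of the threshold, 28 lost and 27 gained a call, and in 83, none of them called, the sign differed. With all 15 arrays 0 members passed at day 0 to 3, 0 in week 3 to 4 and 0 among the 5 groups, and 1 in the phase average; the Tnfsf11 to Tnfrsf11b change was then 0.503 (exact permutation test, p = 0.048). Unmoderated tests with the same adjustment over all genes called 0 in each of the first 3 phases (t tests of the 2 groups compared). They called 0 among the 5 groups (ANOVA, the test named in the methods) and 1 in the phase average. How the study tested single phases is not detailed, so these counts are not a repeat of its test. The limma fit of the 2 groups called 0, 2 and 0 members in these phases. At day 0 to 3, 3 were called with trend and robust moderation, array weights or a highest group mean of at least 6. Dcstamp met that filter only through day 0 to 3 (mean 6.40) and week 1 to 2 (6.24), and Oscar only through day 0 to 3 (6.17). A call of these genes under this filter is therefore no added support. In the same phase 2 were called with median centring, a second quantile normalisation, 1 SD per array or without control 2 and decline 10. Array weights called 2 in week 1 to 2, 1 in the phase average and 2 among the 5 groups (Acp5 and Tnfsf11). A fold of at least 2 left 1 in the phase average, as did quantile normalisation over 15 arrays, which also left 0 in week 3 to 4. Without control 2 and decline 10 together, 2 were called in week 1 to 2 and 1 in decline.

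With single joints left out, members called ranged from 0 to 3 at day 0 to 3 (0 without animal 16, 3 without decline 10), 1 to 2 in week 1 to 2, 0 to 1 in week 3 to 4 (0 without animals 54 or 60), 0 to 1 in decline (1 without decline 10) and 1 to 4 in the phase average (4 without decline 10). The Tnfsf11 to Tnfrsf11b change then ranged from 0.402 to 0.612. Over all alternatives the genes called of all genes ranged from 0 to 2935 at day 0 to 3 and from 0 to 1427 in week 3 to 4. No paired analysis was possible because the groups share no animal numbers. Few arrays per group and values near background for Dcstamp, Calcr and Oscar limit what could be detected.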
